A study of Mus musculus with 12 samples.

Results

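The genes of glycolysis, the pentose phosphate pathway and the HIF-1 axis were examined in mouse bone-marrow-derived macrophages, which are grown from marrow with macrophage colony-stimulating factor. The set was a list of 37 gene symbols from pathway knowledge, and the rule for membership uses no measured value, although the list was drawn up with earlier results of these data known. All 37 symbols were found, in 38 of 55487 gene rows, because Aldoa stands for 2 gene IDs. All 38 rows passed the filter on low counts and were among the 15801 genes tested. Poly-A RNA was sequenced in 4 groups of 3 libraries. They were Fes-/- macrophages given LPS (lipopolysaccharide), a glycolipid from the outer membrane of Gram-negative bacteria that activates TLR4, at 1 µg/mL for 4 hours, Fes-/- macrophages given PBS for the same time, and Fes+/+ (wild-type) macrophages under the same LPS or PBS. One field of the labels calls the PBS cells untreated. Fes encodes a myeloid tyrosine kinase, and the sources used here do not give the design of its allele. The series title concerns how Fes-deficient macrophages prime CD8+ T cells. The labels number the libraries of each group as biological replicates from 3 mice per genotype, without saying whether an LPS and a PBS library with the same number came from 1 mouse.

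In glycolysis, glucose enters the cell through transporters, is trapped by hexokinase, is committed by phosphofructokinase-1, and is turned into pyruvate, which lactate dehydrogenase can reduce to lactate. The pentose phosphate pathway branches off at glucose 6-phosphate, and its oxidative arm makes NADPH while its other arm rearranges sugar phosphates. HIF-1 is a transcription factor whose alpha subunit, HIF-1α, is marked for destruction by the EGLN prolyl hydroxylases. It drives many glycolytic genes, and macrophages stimulated with LPS are known to raise Hif1a and to shift toward glycolysis.

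The 12 libraries held 61016254 to 101027166 counts, and all carried 1 batch date. Fes itself had 16.0 to 16.8 TPM in Fes-/- LPS libraries and 63.8 to 66.7 TPM in Fes-/- PBS libraries, against 72.2 to 82.0 TPM in wild-type LPS libraries and 154 to 174 TPM in wild-type PBS libraries, so it was lower in Fes-/- libraries of either treatment but not at 0. TPM is a level scaled by gene length so that each library sums to the same total. The 10 macrophage markers summed to 17201 to 21254 TPM in Fes-/- LPS, 29111 to 37721 TPM in Fes-/- PBS, 18412 to 22491 TPM in wild-type LPS and 32614 to 39643 TPM in wild-type PBS libraries. Their defining members Csf1r, Adgre1 and Cd68 each averaged 711 TPM or more in every group. The 12 neutrophil markers summed to at most 54.7 TPM, the 8 dendritic markers to at most 3.93 TPM, the 6 stromal markers to at most 6.64 TPM, the 7 erythroid markers to at most 0.470 TPM and the 6 lymphocyte markers to at most 0.365 TPM. The neutrophil sum was 31.7 to 39.1 TPM in Fes-/- PBS and 42.1 to 54.7 TPM in wild-type PBS libraries, without overlap. Under LPS it was 17.3 to 23.1 TPM in Fes-/- and 20.8 to 30.9 TPM in wild-type libraries. The 4 megakaryocyte markers summed to 639.9 to 1016 TPM, nearly all of it Pf4, while Gp1bb was at 0 in every library. The summed stromal markers were 5.41 to 6.64 TPM in Fes-/- LPS and 3.10 to 5.55 TPM in wild-type LPS libraries, against 0.366 to 0.598 TPM in Fes-/- PBS and 0.233 to 0.575 TPM in wild-type PBS libraries. The dendritic markers summed to 3.32 to 3.93 TPM in Fes-/- LPS and 1.95 to 2.95 TPM in wild-type LPS libraries, against 1.46 to 1.78 TPM in Fes-/- PBS and 1.11 to 1.75 TPM in wild-type PBS libraries. In the stromal list this was Pdgfrb, with Col1a1, Col1a2, Col3a1, Pdgfra and Lum near 0 in every group, and in the dendritic list it was mainly Ccr7, with Flt3 and Zbtb46 near 0. What part these small amounts had in the results was not tested.

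The promoters of the 5 members shown here belong to genes whose direction under LPS did not depend on the scaling, 3 of them higher (Pfkfb3, Hk2 and Slc2a1) and 2 lower (Pfkfb4 and Shpk). Each is the RefSeq window of 300 bases around the gene start on GRCm38.p6, printed 5′ to 3′ on the gene's strand. Capitals mark ACGTG or GCGTG, the core of the HIF binding element, or the same letters read on the other strand, CACGT or CACGC. The windows are chr2:11553880-11554179 on the minus strand for Pfkfb3, which is the more 5′ of its 2 windows, chr9:108991652-108991951 on the plus strand for Pfkfb4, chr6:82774405-82774704 on the minus strand for Hk2, chr4:119108495-119108794 on the plus strand for Slc2a1 and chr11:73199232-73199531 on the plus strand for Shpk.
Pfkfb3: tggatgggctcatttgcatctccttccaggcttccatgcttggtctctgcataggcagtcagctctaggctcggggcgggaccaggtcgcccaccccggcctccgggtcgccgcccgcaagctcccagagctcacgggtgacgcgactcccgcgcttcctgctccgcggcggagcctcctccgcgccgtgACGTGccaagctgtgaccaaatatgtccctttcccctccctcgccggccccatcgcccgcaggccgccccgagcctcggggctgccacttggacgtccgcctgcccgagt
Hk2: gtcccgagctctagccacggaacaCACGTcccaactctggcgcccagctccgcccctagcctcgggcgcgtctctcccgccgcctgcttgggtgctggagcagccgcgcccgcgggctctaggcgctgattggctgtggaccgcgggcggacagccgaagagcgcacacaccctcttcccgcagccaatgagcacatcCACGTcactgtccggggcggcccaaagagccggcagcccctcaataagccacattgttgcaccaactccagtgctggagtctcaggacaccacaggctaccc
Slc2a1: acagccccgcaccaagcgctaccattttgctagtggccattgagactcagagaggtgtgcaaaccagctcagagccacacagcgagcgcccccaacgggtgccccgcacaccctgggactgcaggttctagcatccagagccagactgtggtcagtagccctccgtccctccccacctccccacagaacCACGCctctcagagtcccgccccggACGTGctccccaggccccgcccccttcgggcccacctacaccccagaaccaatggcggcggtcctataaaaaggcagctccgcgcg
Pfkfb4: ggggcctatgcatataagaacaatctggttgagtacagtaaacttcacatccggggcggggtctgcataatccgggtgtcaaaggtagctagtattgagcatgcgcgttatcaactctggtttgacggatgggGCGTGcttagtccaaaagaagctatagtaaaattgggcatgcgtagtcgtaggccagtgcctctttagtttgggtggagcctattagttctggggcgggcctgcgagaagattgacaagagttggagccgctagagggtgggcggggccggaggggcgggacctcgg
Shpk: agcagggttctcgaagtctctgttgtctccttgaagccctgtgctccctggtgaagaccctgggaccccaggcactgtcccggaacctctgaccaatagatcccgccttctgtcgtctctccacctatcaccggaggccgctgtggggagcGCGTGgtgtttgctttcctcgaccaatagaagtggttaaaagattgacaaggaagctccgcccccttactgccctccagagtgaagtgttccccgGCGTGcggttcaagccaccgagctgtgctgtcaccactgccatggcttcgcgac
The core letters were present in the promoters of genes that were higher and of genes that were lower under LPS. RefSeq gave 51 windows for the 37 symbols, and 41 of them (80.4%) held the core on either strand, against 14380 of 32851 windows of all genes (43.8%). The members' windows were richer in G and C, with a median of 60.7% against 52.7%, and 61.2% of the windows of all genes within the interquartile range of the members' GC held the core. Of the 37 symbols, Eno2, Gpi1, Rpe and Tpi1 had no window with it. The full E-box CACGTG, which contains the core, was in 11.8% of the members' windows and 7.15% of all windows. The NF-κB consensus was in 1 member window, that of Vegfa (1.96%), and in 4.51% of all windows. These are matches of letters in short windows and show no binding.

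After LPS, the glucose transporter gene Slc2a1 and the hexokinase genes rose, and genes around the commitment step moved in both directions. Pfkfb3 rose 99.3-fold in Fes-/- and 107-fold in wild-type macrophages, Hk2 had the next largest fold among the enzymes, and Slc2a1, Hif1a and Pfkp rose between 4.22-fold and 7.49-fold. Pfkfb4, Pfkm, Shpk, Vegfa and Egln1 fell, and most enzymes in the middle of the pathway changed by less than 2-fold. Fold changes below are log2 values of LPS over PBS from edgeR's quasi-likelihood test with their standard error (SE), on the scale of TMM library factors, and adjusted p-values are Benjamini-Hochberg values over all 15801 genes. In Fes-/- macrophages 17 of the 38 rows were higher and 9 lower at an adjusted p under 0.05 (44.7% and 23.7%), beside 34.3% higher and 38.9% lower of all genes tested, or 73.2% in either direction. In wild-type macrophages 18 were higher and 9 lower (47.4% and 23.7%), beside 34.6% and 38.8% of all genes, or 73.4% in either direction. LPS moved most genes of these cells, so a called member is not in itself a result about the pathway. The same 16 rows were called higher and the same 9 lower in both genotypes, Pgd was called in Fes-/- and not in wild type, Aldoa and Pkm in wild type and not in Fes-/-, and no row was called in opposite directions. These 3 calls lay near the threshold, the test of the difference between the genotypes called none of them (each adjusted p = 1), and with the replicate number as a block Aldoa and Pkm were called in Fes-/- too (adjusted p = 0.019 and 0.0214). In CPM scaled by TMM, 21 rows had all Fes-/- LPS libraries above all Fes-/- PBS libraries and 10 had them below, where 77.2% of all genes did not overlap, and in wild type the counts were 17 above and 9 below, where 75.3% did not overlap. The median member changed by 0.21 in Fes-/- and 0.19 in wild type, and the median of all genes by -0.08 and -0.07.

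Members with small positive folds on the TMM scale had negative ones with library totals, 14 rows in Fes-/- and 17 in wild type, while Gpi1, Ldhb, G6pdx and Pgls were below 0 on both. TMM factors were 0.707 to 0.737 in LPS libraries and 1.35 to 1.40 in PBS libraries, and with library totals alone the median gene changed by -1.01 in Fes-/- and -0.98 in wild-type macrophages. On that scale 10 members were called higher and 28 lower in Fes-/-, and 10 higher and 25 lower in wild type. Of all genes tested, 15.9% were then called higher and 70% lower in Fes-/-, and 16.3% and 68.5% in wild type, so most genes shared that shift. On both scales 25 rows in Fes-/- and 27 in wild type lay above the median gene. The scales differ by a shift common to all genes, so this match follows from the scaling and adds no support. In both genotypes 9 rows were called higher and 6 lower under every alternative tried. The share of all genes that kept their call in this way was not computed, so these counts are not in themselves a result about the pathway. The 9 were Slc2a1, Hk1, Hk2, Hk3, Pfkp, Pfkfb3, Rpe, Hif1a and Adm, and the 6 were Pfkm, Pfkfb4, Shpk, Vegfa, Egln1 and the locus upstream of Aldoa. In bulk RNA, fewer cells expressing a gene and less RNA per cell cannot be told apart.

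**Figure D1:**
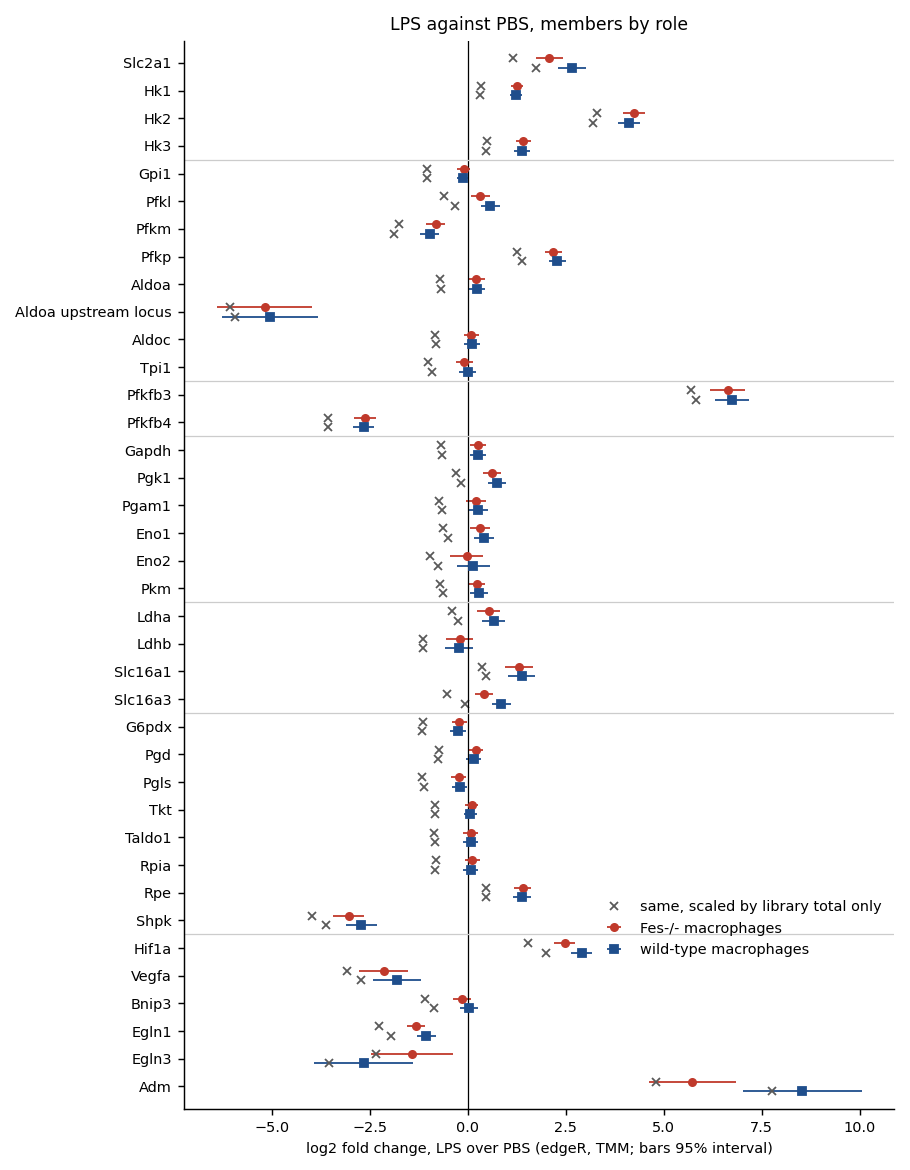
Log2 fold change of LPS over PBS for each of the 38 rows, grouped by role, in Fes-/- (red circles) and wild-type (blue squares) macrophages, with bars for the 95% interval and grey crosses for the same fold with libraries scaled by their totals alone. The crosses lie about 1 unit to the left of every symbol, so small positive folds such as those of Gapdh and Pkm change sign, those of Gpi1 and G6pdx stay below 0, Pfkfb3, Hk2, Slc2a1, Hif1a and Pfkp stay above 0, and Pfkfb4, Shpk and Vegfa stay below it.

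All 4 member genes of glucose entry and trapping rose in both genotypes, on either scale. Outside the set, Slc2a3, Slc2a8 and Slc2a9, carriers of the same family as Slc2a1, fell on either scale. Slc2a1 encodes GLUT1, the main glucose transporter of activated macrophages. It had 56.7, 55.9 and 60.7 TPM in the 3 Fes-/- LPS libraries, against 26.8, 33.1 and 21.2 TPM in Fes-/- PBS libraries. Wild-type LPS libraries had 61.9, 71.2 and 75.6 TPM, against 23.6, 15.9 and 23.7 TPM in wild-type PBS libraries. Every LPS library was above every PBS library, by a log2 fold of 2.08 ± 0.16 in Fes-/- (adjusted p = 5.31e-08) and 2.66 ± 0.16 in wild type (adjusted p = 5.02e-09). Hk2, the inducible hexokinase that binds mitochondria, had 142, 132 and 175 TPM in Fes-/- LPS libraries, against 15.6, 16.6 and 14.6 TPM in Fes-/- PBS libraries. In wild-type macrophages Hk2 had 155, 164 and 157 TPM under LPS, against 21.0, 17.2 and 14.6 TPM under PBS. The groups were far apart, with log2 folds of 4.24 ± 0.13 (adjusted p = 8.76e-13) in Fes-/- and 4.12 ± 0.13 (adjusted p = 1.09e-12) in wild type.

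Hk3, a hexokinase abundant in myeloid cells, was the most abundant of the 3 in every library. Its level was 389, 400.2 and 383 TPM in Fes-/- LPS libraries, against 302, 270.4 and 292 TPM in Fes-/- PBS libraries. For wild type, Hk3 stood at 386, 438 and 383 TPM under LPS, against 327, 279 and 282 TPM under PBS. The groups did not overlap, and Hk3 rose by 1.42 ± 0.09 in Fes-/- (adjusted p = 2.12e-09) and 1.38 ± 0.09 in wild type (adjusted p = 2.69e-09). Hk1, the housekeeping hexokinase, had 77.0, 73.6 and 73.0 TPM in Fes-/- LPS libraries, against 61.2, 66.1 and 56.4 TPM in Fes-/- PBS libraries. In wild-type libraries Hk1 had 68.2, 68.6 and 75.6 TPM under LPS, against 60.7, 56.0 and 57.4 TPM under PBS. The gap in TPM was small, and on the TMM scale the log2 folds were 1.26 ± 0.07 in Fes-/- (adjusted p = 4.95e-10) and 1.23 ± 0.07 in wild type (adjusted p = 6.69e-10). With library totals alone the Hk1 folds were 0.33 and 0.32 and still called. Summed over the 4 genes of this step, LPS libraries held 662 to 692 TPM in Fes-/- and 671 to 742 TPM in wild type, against 384 to 406 TPM in Fes-/- PBS and 368 to 432 TPM in wild-type PBS libraries.

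The mRNAs of Pfkfb3 and Pfkfb4 moved in opposite directions. PFKFB3 makes fructose 2,6-bisphosphate, an activator of phosphofructokinase-1, with little activity in the reverse direction, and PFKFB4 both makes and degrades it. Pfkfb3 had 303, 250.0 and 365 TPM in Fes-/- LPS libraries, against 6.94, 5.83 and 5.44 TPM in Fes-/- PBS libraries. In wild type Pfkfb3 had 307, 431 and 320.2 TPM under LPS, against 5.50, 7.51 and 5.98 TPM under PBS. It rose by a log2 fold of 6.63 ± 0.20 in Fes-/- (adjusted p = 2.14e-12) and 6.74 ± 0.20 in wild type (adjusted p = 1.88e-12). Pfkfb4 moved the other way, with 3.61, 3.18 and 3.77 TPM in Fes-/- LPS libraries, against 46.4, 36.8 and 44.7 TPM in Fes-/- PBS libraries. Wild-type macrophages had 3.48, 4.36 and 3.74 TPM of Pfkfb4 under LPS, against 42.3, 52.6 and 44.9 TPM under PBS. Its log2 folds were -2.62 ± 0.13 (adjusted p = 7.37e-11) in Fes-/- and -2.65 ± 0.13 (adjusted p = 6.87e-11) in wild type. The sum of both genes was 253 to 369 TPM in Fes-/- LPS and 310 to 435 TPM in wild-type LPS libraries, against 42.6 to 53.4 TPM in Fes-/- PBS and 47.8 to 60.1 TPM in wild-type PBS libraries.

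**Figure D2:**
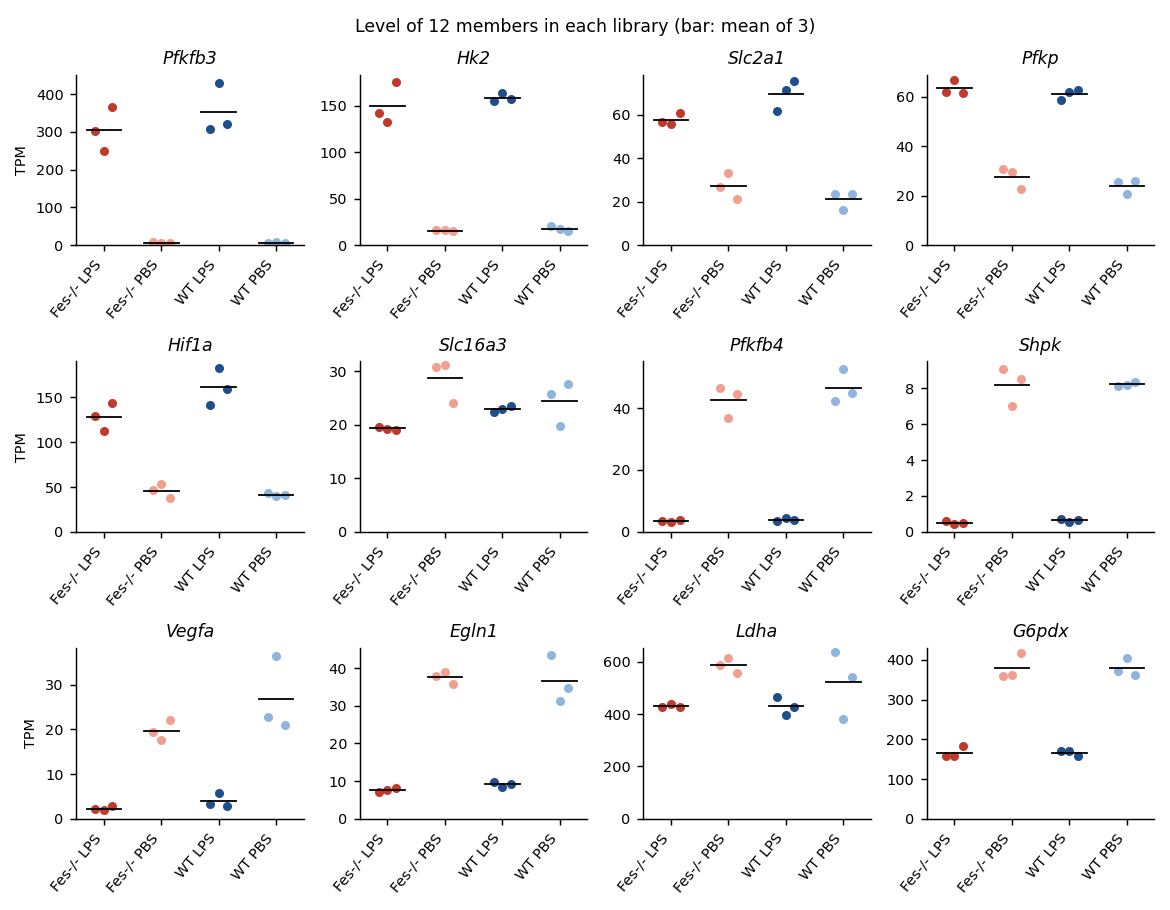
TPM of 12 members in each library, with 1 point per library, a bar at the mean of 3 and groups running Fes-/- LPS, Fes-/- PBS, wild-type LPS and wild-type PBS from left to right. Pfkfb3, Hk2, Slc2a1, Pfkp and Hif1a lie higher in all LPS libraries, Pfkfb4, Shpk, Vegfa, Egln1 and G6pdx lie lower, and Slc16a3 and Ldha overlap between treatments in wild type.

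Among the upper enzymes, 8 rows in all, 2 were called higher and 2 lower in Fes-/- and 3 higher and 2 lower in wild type, and the 3 genes for phosphofructokinase-1 differed in direction. Pfkp, the platelet-type subunit, had 62.0, 66.7 and 61.5 TPM in Fes-/- LPS libraries, against 30.6, 29.4 and 22.5 TPM in Fes-/- PBS libraries. In wild-type cells Pfkp had 58.8, 61.9 and 62.8 TPM under LPS, against 25.6, 20.7 and 25.8 TPM under PBS. LPS and PBS libraries did not overlap, and Pfkp rose by 2.19 ± 0.11 in Fes-/- (adjusted p = 7.99e-11) and 2.29 ± 0.11 in wild type (adjusted p = 5.01e-11). Pfkm, the muscle-type subunit, spanned 7.19 to 7.65 TPM in Fes-/- LPS and 22.6 to 27.2 TPM in Fes-/- PBS libraries, and 6.67 to 7.69 TPM in wild-type LPS and 23.7 to 29.6 TPM in wild-type PBS libraries. Pfkm fell, with log2 folds of -0.82 ± 0.11 (adjusted p = 9.16e-06) in Fes-/- and -0.97 ± 0.11 (adjusted p = 1.7e-06) in wild type. Pfkl, the liver-type subunit, was called higher on the TMM scale at 0.32 and 0.58 in Fes-/- and wild type but stood at -0.61 and -0.34 with library totals alone, and its Fes-/- call was lost without Fes-/- PBS library 3 or LPS library 3 (0.32 and 0.25). Of the remaining rows of the upper pathway, Gpi1, Tpi1 and Aldoc passed the test in neither genotype, and Aldoa passed in wild type at 0.23 (adjusted p = 0.0496), beside -0.68 with library totals. That call was lost without any one of 7 libraries (0.14 to 0.25). The second row named Aldoa, a neighbouring gene model just upstream (GRCm38 chromosome 7, 126800790 to 126809108), had 2, 2 and 0 counts in Fes-/- LPS libraries, against 97, 67 and 71 counts in Fes-/- PBS libraries. Wild-type libraries had 1, 0 and 3 counts of it under LPS, against 135, 82 and 68 counts under PBS. This row fell, with log2 folds of -5.19 in Fes-/- (adjusted p = 9.26e-07) and -5.06 in wild type (adjusted p = 1.25e-06), while Aldoa itself spanned 644 to 1328 TPM over the 12 libraries.

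Of the 6 members of lower glycolysis, 3 were called higher in Fes-/- and 4 in wild type with TMM, none by a log2 fold of 1, and all 6 had folds below 0 with library totals. Gapdh had 754 to 820.3 TPM in Fes-/- LPS and 1209 to 1347 TPM in Fes-/- PBS libraries, and 708 to 824 TPM in wild-type LPS and 1093 to 1328 TPM in wild-type PBS libraries. On the TMM scale Gapdh was called higher at 0.25 in Fes-/- and 0.27 in wild type, and with library totals alone it was called lower at -0.68 and -0.65. The TMM call was lost without Fes-/- PBS library 1 or any Fes-/- LPS library in Fes-/- (0.22 to 0.27) and without wild-type PBS library 2 or LPS library 1 in wild type (0.20 each). The distance of Gapdh from the median gene was about the same on both scales, 0.34 in Fes-/- and 0.34 in wild type with TMM, 0.33 and 0.34 with totals. A shift common to all genes leaves that distance unchanged. Pgk1, which makes the first ATP of the pathway, had the largest TMM fold of these, with 394, 410.1 and 419.6 TPM in Fes-/- LPS libraries, against 505, 546 and 512 TPM in Fes-/- PBS libraries. The wild-type Pgk1 levels were 389, 361 and 387 TPM under LPS, against 499, 351 and 459 TPM under PBS, where 1 PBS library lay below every LPS library. Pgk1's log2 folds of 0.62 ± 0.11 in Fes-/- (adjusted p = 8.04e-05) and 0.74 ± 0.11 in wild type (adjusted p = 1.54e-05) became -0.31 and -0.17 with library totals. Eno1 was called higher with TMM in both genotypes (0.31 and 0.40) and Pkm in wild type (0.29), and both were called lower with totals. The Eno1 call in Fes-/- was lost without PBS library 1 or LPS libraries 2 or 3 (0.28 to 0.31), and the Pkm call without wild-type PBS library 2 or LPS library 1 (0.22 and 0.21). Pgam1 and Eno2 passed the TMM test in neither genotype, although Pgam1 passed in wild type with the replicate block (0.28, adjusted p = 0.0179). The group summed to 2250 to 2416 TPM in Fes-/- LPS and 2098 to 2431 TPM in wild-type LPS libraries, against 3556 to 3897 TPM in Fes-/- PBS and 2902 to 3813 TPM in wild-type PBS libraries.

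At the lactate end 3 of 4 members were called higher in each genotype with TMM. The carrier Slc16a1 (MCT1) rose in wild type on every scale tried, while Ldha and Slc16a3 (MCT4), the lactate exporter of glycolytic cells, depended on the scaling. Ldha had 427, 439.8 and 427 TPM in Fes-/- LPS libraries, against 587, 613 and 556 TPM in Fes-/- PBS libraries. For Ldha the wild-type values were 465, 398 and 426 TPM under LPS, against 638, 382 and 542 TPM under PBS, and the treatments overlapped because of PBS library 2. Ldha's log2 folds with TMM were 0.54 ± 0.14 in Fes-/- (adjusted p = 0.00278) and 0.66 ± 0.14 in wild type (adjusted p = 0.00053), but -0.40 and -0.25 with library totals. Slc16a3 had 19.6, 19.2 and 19.1 TPM in Fes-/- LPS libraries, against 30.8, 31.2 and 24.1 TPM in Fes-/- PBS libraries. Wild-type Slc16a3 was 22.3, 23.0 and 23.5 TPM under LPS, against 25.7, 19.7 and 27.6 TPM under PBS, again overlapping. It was called higher with TMM at 0.41 ± 0.11 (adjusted p = 0.00371) in Fes-/- and 0.86 ± 0.11 (adjusted p = 5.14e-06) in wild type, beside -0.53 and -0.06 with totals. Slc16a1 had 13.7, 16.1 and 15.1 TPM in Fes-/- LPS libraries, against 11.1, 13.8 and 10.9 TPM in Fes-/- PBS libraries. Under LPS wild-type libraries had 15.6, 13.1 and 14.8 TPM of Slc16a1, against 14.2, 8.38 and 9.65 TPM under PBS. In TPM the treatments overlapped by a library in each genotype, and in CPM they did not. The log2 folds of Slc16a1 were 1.30 ± 0.16 in Fes-/- (adjusted p = 4.8e-06) and 1.38 ± 0.16 in wild type (adjusted p = 2.89e-06). In Fes-/- the call was lost on log2(TPM + 0.1) in limma, at 0.33 (adjusted p = 0.0846). Ldhb, the isoform that favours pyruvate, passed in neither genotype, with folds of -0.21 and -0.22.

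Of the 8 pentose phosphate genes, Shpk fell steeply, Rpe rose and the other 6 had folds near 0 on the TMM scale, so that 2 were called higher and 3 lower in Fes-/- and 1 higher and 3 lower in wild type. SHPK, also called CARKL, phosphorylates sedoheptulose and is a known target of repression by LPS in macrophages. Shpk had 0.596, 0.431 and 0.473 TPM in Fes-/- LPS libraries, against 9.06, 7.0 and 8.54 TPM in Fes-/- PBS libraries. Wild-type Shpk was at 0.739, 0.533 and 0.676 TPM under LPS, against 8.10, 8.19 and 8.35 TPM under PBS. All LPS libraries were far below all PBS libraries, with log2 folds of -3.04 ± 0.18 (adjusted p = 1.02e-09) in Fes-/- and -2.72 ± 0.18 (adjusted p = 3.34e-09) in wild type. Rpe, the epimerase that interconverts pentose phosphates, rose, with 51.4, 53.9 and 50.3 TPM in Fes-/- LPS libraries, against 39.1, 39.2 and 37.6 TPM in Fes-/- PBS libraries. In wild type the Rpe levels were 51.0, 48.5 and 52.8 TPM under LPS, against 44.7, 31.0 and 36.1 TPM under PBS. Its log2 folds were 1.40 ± 0.10 in Fes-/- (adjusted p = 1.09e-08) and 1.39 ± 0.10 in wild type (adjusted p = 1.26e-08). Rpe shares 558 bases of exon with Kansl1l on the opposite strand, and the sources used here do not say whether the counting used strand. The same doubt holds for G6pdx, which shares 418 bases with Ikbkg, for Pfkp, which shares 748 with Pitrm1, and for Bnip3, which shares 504 with a nearly uncounted antisense model. It holds too for Gpi1, which shares 741 bases with Gm26762, and Hif1a, which shares 330 with Gm15283. On the same strand Pgls shares 776 bases with Fam129c, Pkm 767 with Gm49759 and Pfkm 341 with Gm26513, so reads there could be split. Hif1a also shares 148 bases on its own strand with Gm49321, which had 0 counts.

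Of the oxidative arm, G6pdx, the gene of its first enzyme, had 159, 157 and 183 TPM in Fes-/- LPS libraries, against 360.4, 361 and 416 TPM in Fes-/- PBS libraries. Wild-type G6pdx stood at 169, 171 and 159 TPM under LPS, against 373, 406 and 361 TPM under PBS. In TPM the LPS libraries were all below the PBS libraries, and under TMM the log2 folds were -0.22 ± 0.09 (adjusted p = 0.0442) in Fes-/- and -0.25 ± 0.09 (adjusted p = 0.0243) in wild type. The Fes-/- call was lost with DESeq2 (-0.18, adjusted p = 0.113) and without any one of 9 libraries, reaching -0.10 without Fes-/- PBS library 3, and the wild-type call was lost without PBS library 2 or LPS library 3 (-0.19 and -0.22). Pgd, the next dehydrogenase, had 123, 136 and 133 TPM in Fes-/- LPS libraries, against 211, 223 and 234 TPM in Fes-/- PBS libraries. Wild-type libraries had 132, 116 and 119.9 TPM of Pgd under LPS, against 231, 200.2 and 204 TPM under PBS. With TMM Pgd was called higher in Fes-/-, at 0.21 ± 0.09 (adjusted p = 0.0459), beside 0.15 ± 0.09 in wild type (adjusted p = 0.133), and with totals it was called lower in both, at -0.73 and -0.76. The Fes-/- call of Pgd was lost without any one of the Fes-/- LPS libraries, Fes-/- PBS libraries 1 or 2, or wild-type LPS libraries 2 or 3 (0.17 to 0.24). Pgls, the lactonase between them, was called lower at -0.23 and -0.21, and both calls were lost with DESeq2 (-0.19, adjusted p = 0.0651, and -0.18, adjusted p = 0.0902). They were also lost without Fes-/- PBS library 3 or Fes-/- LPS libraries 1 or 2 in Fes-/- (-0.24 to -0.15), and without any one of 7 libraries in wild type (-0.21 to -0.16). The transferases Tkt and Taldo1 and the isomerase Rpia had folds of 0.07 to 0.12 in Fes-/- and 0.07 to 0.08 in wild type and passed in neither with TMM. The 8 genes together held 749 to 793 TPM in Fes-/- LPS and 724 to 799 TPM in wild-type LPS libraries, against 1384 to 1513 TPM in Fes-/- PBS and 1344 to 1478 TPM in wild-type PBS libraries.

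On the HIF-1 axis 2 members rose and 3 fell in each genotype. Hif1a had 129, 112 and 144 TPM in Fes-/- LPS libraries, against 46.3, 53.2 and 37.3 TPM in Fes-/- PBS libraries. In wild-type macrophages it had 141, 183 and 159 TPM under LPS, against 43.4, 39.8 and 40.6 TPM under PBS. The groups were apart in both genotypes, with log2 folds of 2.47 ± 0.12 (adjusted p = 1.2e-10) in Fes-/- and 2.91 ± 0.13 (adjusted p = 2.43e-11) in wild type. Egln1 encodes PHD2, the main hydroxylase acting on HIF-1α, and is itself a HIF-1 target. It had 7.10, 7.73 and 8.12 TPM in Fes-/- LPS libraries, against 38.0, 39.1 and 35.7 TPM in Fes-/- PBS libraries. The wild-type levels of Egln1 were 9.79, 8.45 and 9.14 TPM under LPS, against 43.5, 31.4 and 34.6 TPM under PBS. It fell, with log2 folds of -1.32 ± 0.11 (adjusted p = 4.1e-08) in Fes-/- and -1.06 ± 0.11 (adjusted p = 4.84e-07) in wild type. Egln3, another hydroxylase and target, had few counts, with 5, 19 and 9 counts in Fes-/- LPS libraries, against 38, 53 and 49 counts in Fes-/- PBS libraries. Wild-type libraries held 3, 1 and 7 Egln3 counts under LPS, against 58, 54 and 29 counts under PBS. Its log2 folds were -1.43 ± 0.49 in Fes-/- (adjusted p = 0.0167) and -2.65 ± 0.59 in wild type (adjusted p = 0.000874), and without Fes-/- LPS library 1 the Fes-/- value was -0.96 (adjusted p = 0.0849).

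Vegfa, which encodes the angiogenic growth factor VEGF-A, fell, with 2.10, 1.89 and 2.86 TPM in Fes-/- LPS libraries, against 19.4, 17.6 and 22.1 TPM in Fes-/- PBS libraries. In wild type Vegfa was 3.21, 5.71 and 2.92 TPM under LPS, against 22.8, 36.4 and 21.1 TPM under PBS, where replicate 2 was highest under both treatments. The log2 folds were -2.15 ± 0.29 (adjusted p = 2.63e-05) in Fes-/- and -1.82 ± 0.28 (adjusted p = 8.71e-05) in wild type. Adm, the gene of the vasodilator peptide adrenomedullin, appeared mainly under LPS, with 182, 117 and 103 counts in Fes-/- LPS libraries, against 6, 5 and 0 counts in Fes-/- PBS libraries. Wild-type libraries had 111, 48 and 117 Adm counts under LPS, against 1, 0 and 0 counts under PBS. Scaled to library size, the summed counts gave a ratio of 55.6 (95% interval 30.7 to 112) in Fes-/- and 552 (98.2 to 21874.5) in wild type, where the interval covers counting error only and the wild-type value rests on 1 PBS count. Bnip3, which encodes a mitophagy receptor, had 15.9, 13.9 and 18.6 TPM in Fes-/- LPS libraries, against 34.7, 34.1 and 36.5 TPM in Fes-/- PBS libraries. Bnip3 was at 20.0, 21.2 and 18.6 TPM in wild-type LPS libraries, against 38.2, 39.0 and 34.7 TPM in wild-type PBS libraries. The LPS libraries were all lower in TPM, but with TMM the folds of -0.15 and 0.04 passed in neither genotype.

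The make-up of 8 enzyme families was compared as each member's percentage of the family's summed TPM, which no scaling of the library can change. Labels were exchanged between LPS and PBS within each genotype in an exact permutation test, two-sided, over 400 arrangements, whose smallest possible p is 0.005. Of 12 shares tested, 9 differed at that smallest p (0.00667 after Benjamini-Hochberg adjustment), and in all 9 no LPS library overlapped a PBS library of its genotype. They were every hexokinase and phosphofructokinase-1 share, and those of Pfkfb3, Slc16a1 and Ldha. Shares of a family sum to its whole, so they are not separate results. Ldha moved little, with 98.9% in Fes-/- LPS and 98.1% in Fes-/- PBS libraries, and 98.8% in wild-type LPS and 97.7% in wild-type PBS libraries. Hk2 held 24.3% ± 3.11 of hexokinase TPM in Fes-/- LPS and 4.28% ± 0.360 in Fes-/- PBS libraries, and 25.1% ± 0.604 in wild-type LPS and 4.70% ± 0.531 in wild-type PBS libraries (SD, n = 3 each). Hk3's share was lower under LPS, at 63.6% in Fes-/- LPS and 78.9% in Fes-/- PBS libraries, and 63.6% in wild-type LPS and 79.6% in wild-type PBS libraries. Pfkp held 72% ± 1.83 of phosphofructokinase-1 TPM in Fes-/- LPS and 34.1% ± 3.60 in Fes-/- PBS libraries, and 69.1% ± 1.88 in wild-type LPS and 31.2% ± 1.32 in wild-type PBS libraries. Pfkm's share was 8.37% in Fes-/- LPS and 32% in Fes-/- PBS libraries, and 8.17% in wild-type LPS and 35.5% in wild-type PBS libraries. Pfkfb3 held 98.8% ± 0.119 of the TPM of Pfkfb3 and Pfkfb4 in Fes-/- LPS and 12.5% ± 1.47 in Fes-/- PBS libraries, and 98.9% ± 0.0798 in wild-type LPS and 11.9% ± 0.521 in wild-type PBS libraries. Slc16a1 held 43.6% of the TPM of both lactate carriers in Fes-/- LPS and 29.4% in Fes-/- PBS libraries, and 38.7% in wild-type LPS and 30.4% in wild-type PBS libraries. The shares of Aldoa (adjusted p = 0.21), Eno1 (adjusted p = 0.158) and Egln1 (adjusted p = 0.158) did not pass the exact permutation test.

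**Figure D3:**
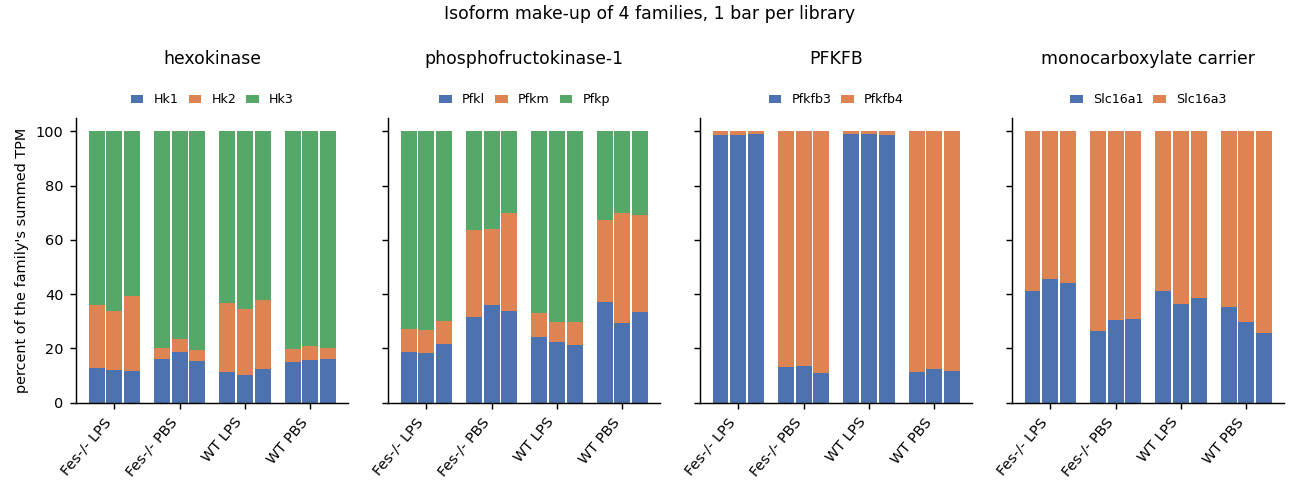
Stacked bars of each isoform's percentage of its family's summed TPM, 1 bar per library, with groups running Fes-/- LPS, Fes-/- PBS, wild-type LPS and wild-type PBS from left to right. Hk2, Pfkp, Pfkfb3 and Slc16a1 take larger shares in every LPS library than in the PBS libraries of the same genotype, with Pfkfb3 near 98.8% under LPS and near 12.5% under PBS in Fes-/- macrophages.

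The question of the series, what macrophages without intact Fes do differently, gave no called member. Under LPS 0 of the 38 rows passed for Fes-/- against wild type with edgeR, beside 17 of all genes (0.108%, with 0.0696% higher and 0.038% lower), and 6 rows had an unadjusted p under 0.05, beside 1030 of all genes. Under PBS 0 rows passed, beside 13 genes (0.0823%, with 0.0506% higher and 0.0316% lower), and 1 row had an unadjusted p under 0.05, beside 605 genes. DESeq2 also called 0 members in either comparison, while edgeR without the filter on low counts called Vegfa lower in both, at -0.78 under LPS (adjusted p = 3.3e-06) and -0.49 under PBS (adjusted p = 0.00788), among 358 and 315 genes called. The 95% interval of the difference lay within 2-fold for 35 rows under LPS and 36 under PBS, and 74.1% and 77.7% of all genes did so. A p that misses the threshold does not show that the genotypes were alike. For the steps with the strongest response, the interval of Fes-/- over wild type under LPS was -0.56 to 0.12 for Pfkfb3, -0.35 to 0.15 for Hk2, -0.61 to 0.05 for Slc2a1 and -0.18 to 0.26 for Pfkp, in log2.

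The smallest unadjusted p-values under LPS belonged to Bnip3, Hif1a and Vegfa, all with differences below 0 that did not pass. From the values above, Hif1a in LPS libraries was 112 to 144 TPM in Fes-/- and 141 to 183 TPM in wild type, which overlap by 1 library. Its difference was -0.34 ± 0.12 (adjusted p = 0.696). Bnip3 was 13.9 to 18.6 TPM in Fes-/- and 18.6 to 21.2 TPM in wild type under LPS, a difference of -0.32 ± 0.11 (adjusted p = 0.696). Bnip3 lies on chromosome 7, which also carries Fes, as do Gpi1, Ldha, Adm, Taldo1, Aldoa and the locus upstream of Aldoa. The differences of these under LPS were 0.012, -0.010, 0.18, 0.014, 0.040 and -0.33 in that order, none of them called. What part the chromosome had in any of these levels was not tested. Vegfa was 1.89 to 2.86 TPM in Fes-/- and 2.92 to 5.71 TPM in wild type under LPS, a difference of -0.81 ± 0.29 (adjusted p = 0.719), and -0.44 without wild-type LPS library 2. In CPM, 7 rows had all 3 Fes-/- LPS libraries below all wild-type LPS libraries and 1 row had them above, while 11.4% of all genes showed such a gap in either direction. Under PBS all 38 rows overlapped between the genotypes, where 6.82% of all genes did not. The lowest unadjusted p under PBS was that of Adm, which rested on at most 6 counts in any library, followed by Pgk1 at 0.21 ± 0.11 (adjusted p = 0.975) and Slc2a1 at 0.30 ± 0.16 (adjusted p = 0.975).

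**Figure D4:**
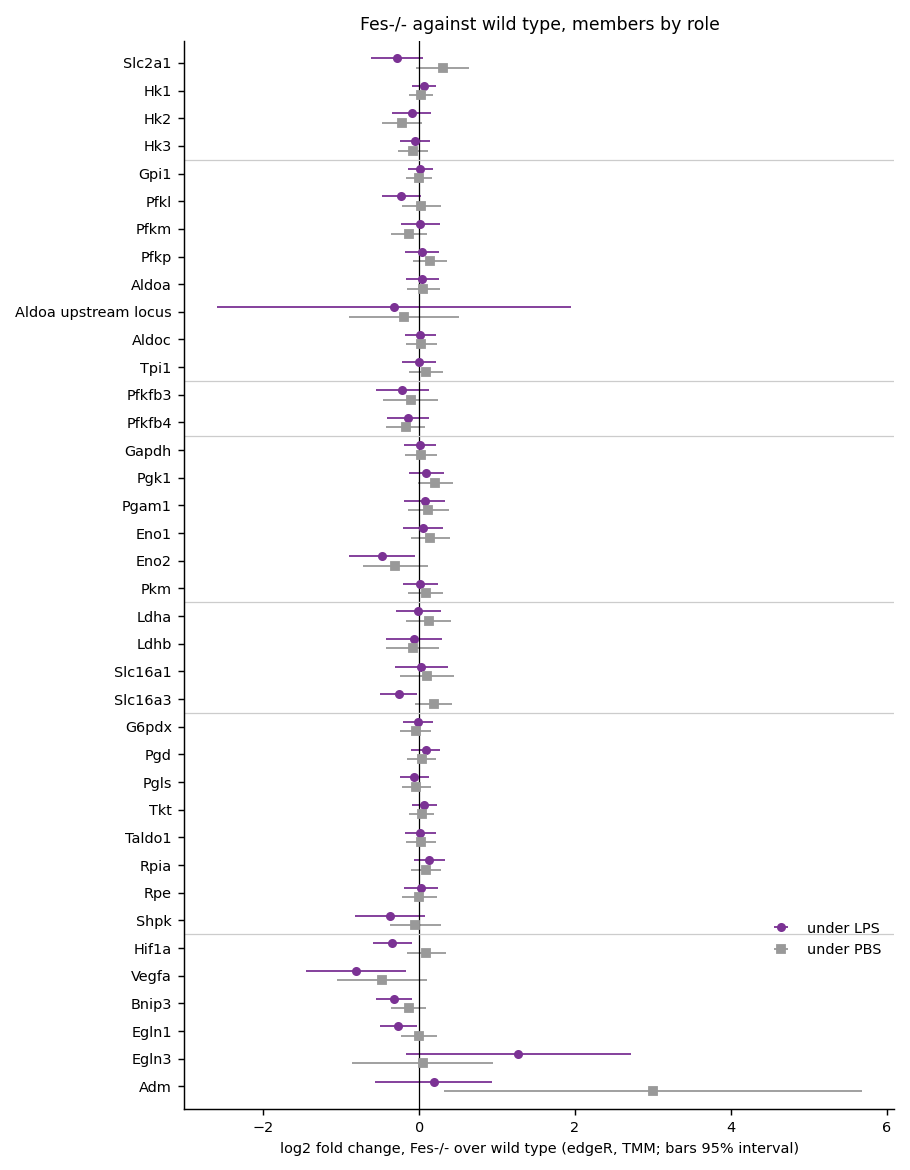
Log2 fold change of Fes-/- over wild type for each of the 38 rows under LPS (purple circles) and under PBS (grey squares), with bars for the 95% interval. Most symbols lie near 0, Hif1a, Bnip3 and Vegfa lie below 0 under LPS, and the widest bars belong to Adm, Egln3 and the locus upstream of Aldoa, which have few counts.

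The LPS response itself was compared between genotypes as the difference of the 2 log2 folds, Fes-/- minus wild type. No member passed, beside 3 genes in the whole table (0.019%, with 0.00633% higher and 0.0127% lower), and 4 members had an unadjusted p under 0.05, beside 464 genes. They were Slc16a3 at -0.45 ± 0.16, Slc2a1 at -0.59 ± 0.22, Hif1a at -0.43 ± 0.17 and the sparsely counted Adm at -2.82 ± 1.31, all below 0 (each adjusted p = 1). Without wild-type PBS library 2 the Slc16a3 value was -0.31 and the Slc2a1 value -0.41. The unfiltered edgeR fit called Slc2a1, at -0.54 (adjusted p = 0.0473).

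Libraries of 1 group were not equally alike for these genes. Wild-type PBS library 2 was the lowest of the 6 PBS libraries for 22 of the 38 rows (57.9%), while it was lowest for 26.3% of all genes tested. Its Ldha level was 382 TPM beside 542 to 638 TPM in the other wild-type PBS libraries, and Pgk1, Eno1, Pgam1, Slc2a1 and Slc16a3 were likewise lowest there. Wild-type PBS library 1 was the highest for 14 rows (36.8%), against 16.0% of all genes. Under LPS, wild-type library 2 was the lowest for 18 rows (47.4%), against 24.5% of all genes, yet it was the highest for Hif1a and Vegfa. These shares are a description, since the members are not independent of each other.

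**Figure D5:**
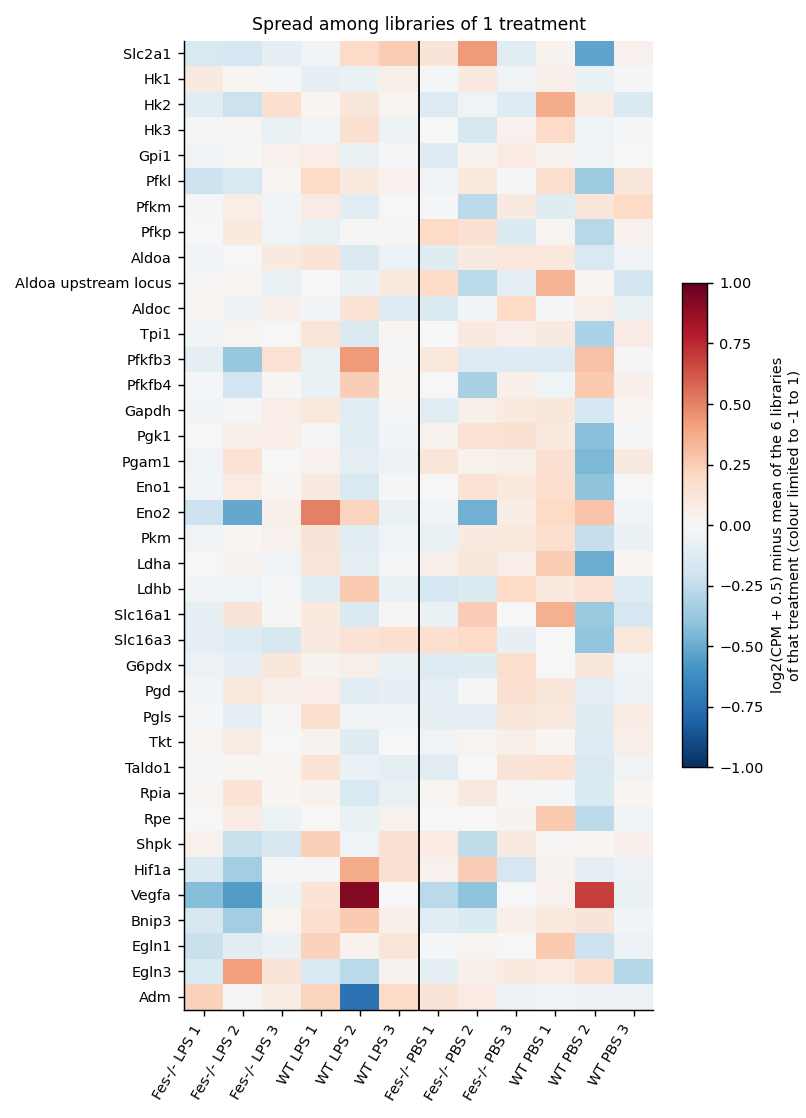
Deviation of each of the 38 rows, in log2(CPM + 0.5), from the mean of the 6 libraries of the same treatment, with LPS libraries on the left and PBS libraries on the right of the line. The column of wild-type PBS library 2 is blue for most glycolytic enzymes, where it was the lowest library for 22 rows, and red for Vegfa, and Vegfa is also highest in wild-type LPS library 2.

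Related genes outside the set were counted from 4 lists drawn from general knowledge, on the TMM scale with the count under library totals beside it. Of all genes, 34.3% were higher and 38.9% lower in Fes-/- and 34.6% and 38.8% in wild type with TMM, and 15.9% and 70% in Fes-/- and 16.3% and 68.5% in wild type with totals. Of 17 tested genes of side branches and reversal, 3 were higher and 6 lower in Fes-/- and 3 higher and 5 lower in wild type, while with totals 1 and 2 were higher and 14 and 15 lower. Gfpt2, which feeds the hexosamine branch, rose, averaging 4.46 CPM in Fes-/- LPS and 0.0151 CPM in Fes-/- PBS libraries, and 4.93 CPM in wild-type LPS and 0.0109 CPM in wild-type PBS libraries. Bpgm, the mutase that makes 2,3-bisphosphoglycerate, fell, with log2 folds of -1.36 and -1.21. Of 10 tested further isoforms and carriers, 1 was higher and 6 lower in Fes-/- and 2 higher and 7 lower in wild type, with totals 1 higher and 7 lower in each. Slc2a6, a lysosomal hexose transporter, rose by 4.21 ± 0.20 and 4.49 ± 0.20, to 666 CPM in Fes-/- LPS against 36.0 CPM in Fes-/- PBS libraries. The other tested carriers of its family were called lower in both genotypes on either scale. Their TMM folds in Fes-/- and wild type were -1.03 and -1.14 for Slc2a3, -1.12 and -1.08 for Slc2a8, and -0.48 and -0.48 for Slc2a9. Pfkfb2 fell, with log2 folds of -2.28 in Fes-/- and -2.57 in wild type. Of 11 tested HIF pathway regulators, 8 were higher and 1 lower in Fes-/- and 8 higher and 2 lower in wild type, but with totals 2 were higher in each and 7 and 8 lower. Cited2, which competes with HIF-1α for its coactivator, rose on both scales, by 2.75 ± 0.21 in Fes-/- and 2.57 ± 0.21 in wild type with TMM. Of 26 tested further HIF-1 targets, 10 were higher and 10 lower in Fes-/- and 11 higher and 9 lower in wild type, with totals 5 higher in each and 18 and 16 lower. Nos2, the inducible nitric oxide synthase, averaged 2619 CPM in Fes-/- LPS and 0.115 CPM in Fes-/- PBS libraries, and 2629 CPM in wild-type LPS and 0.0297 CPM in wild-type PBS libraries. P4ha1, a collagen prolyl hydroxylase subunit, rose by 2.02 ± 0.13 in Fes-/- and 2.15 ± 0.13 in wild type, and Rora, a nuclear receptor, fell, with log2 folds of -2.73 and -3.54. No gene of these lists was called between genotypes under LPS or PBS or for the difference of LPS effects.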

How the data were processed

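The authors deposited 1 table of raw counts per gene and 1 table of TPM per gene, each with 1 column per library for 12 libraries of 4 groups, matched to the labels by the columns' names. Per the submitters' processing notes, the tools included DESeq2 1.34.0, R 4.1.12, Picard 2.9.0 and the aligner STAR 2.7.8a, and the builds mm9 and GRCm38 appear with no roles. The program that counted the reads and its strand setting are not given in the sources used here. The lengths implied by the deposited TPM and counts lie within 1% of GENCODE M21 (GRCm38) exon lengths for 38 of 38 member rows, so coordinates are GRCm38. TPM and library totals fix each library's sum, while TMM centres the bulk of genes, so the scales differ by a shift common to all genes, and the files do not show which is closer to RNA per cell.

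The members and lists were chosen with earlier results of these data known. Counts were fitted with edgeR 4.0.16 (R 4.3.3; filterByExpr, TMM, robust quasi-likelihood with 1 mean per group over all 12 libraries, 8 residual degrees of freedom), on 15801 genes with Benjamini-Hochberg adjustment and a threshold of 0.05. The fit was also run on simulated counts with differences set only in the Fes-/- LPS group. It was not tested there on a response as wide as that to LPS. The alternatives were DESeq2 1.42.0, RLE factors, library totals, no filter, 1 CPM in 3 libraries, the 6 libraries of a comparison, limma 3.58.1 on log2(TPM + 1) and log2(TPM + 0.1), a replicate block and each library left out in turn. Isoform shares were computed from TPM, or from CPM as an alternative, in Python 3.11.15. Near-identical copies were sought with BLAST 2.17.0: copies of Gapdh at 77 loci hold 0.881% of its count, and 1 copy of Ldhb holds 4.54%. Promoters come from RefSeq on GRCm38.p6.

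Values are given in every library for members called in both genotypes after LPS with a log2 fold of at least 1 in either, for Slc2a1, Hk2, Pfkfb3, Ldha, Slc16a3, Hif1a, Vegfa, G6pdx and Pgd, and for the 3 members with the smallest unadjusted p in each genotype comparison, and others by range and count. Up to 4 genes with the smallest adjusted p were named from each further list, with the other tested Slc2a carriers named beside Slc2a6. Intervals of single counts cover counting error only. Same-numbered wild-type LPS and PBS libraries deviated together, with correlations of 0.141, 0.166 and 0.137, against 0.0678, 0.0894 and 0.189 in Fes-/-. The main fit and the permutation test paired no libraries in either genotype. The replicate block for LPS effects, an alternative, paired them by number in both genotypes.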

Additional observations from a re-analysis of the deposited data

How the results depend on the processing

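Between the genotypes no member was called under any alternative except no filter, which called 1 lower under LPS, 1 under PBS and 1 for the difference of LPS effects. The genes called in the whole table were 38 with DESeq2 and 358 with no filter under LPS, 33 and 315 under PBS, and 5 and 90 for the difference of LPS effects, where limma called 6 on log2(TPM + 1) and 5 on log2(TPM + 0.1). After LPS, 10 members were called higher and 28 lower in Fes-/- and 10 and 25 in wild type with library totals alone, and 9 and 28 in Fes-/- and 10 and 25 in wild type with limma under either pseudocount. Of all genes, library totals called 15.9% higher and 70% lower in Fes-/- and 16.3% and 68.5% in wild type, log2(TPM + 1) 15.5% and 70.9% in Fes-/- and 15.9% and 69.2% in wild type, and log2(TPM + 0.1) 15.5% and 71% in Fes-/- and 16% and 69.6% in wild type. Leaving out 1 library gave 13 to 20 members higher and 6 to 9 lower in Fes-/-, 15 to 20 higher and 7 to 9 lower in wild type, and 0 between genotypes or for the difference. Of all genes, those fits called 31.7% to 35.3% higher and 35.5% to 38.4% lower in Fes-/-. In wild type they called 32% to 34.9% of all genes higher and 36% to 38.1% lower. An isoform share changed its call when 1 library was left out for Aldoa (0.191 to 0.524 percentage points) and Egln1 (0.540 to 1.28 percentage points). The cause was not tested.

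Without TMM factors LPS folds shift by about the change of the median gene. With library totals alone, the log2 folds in Fes-/- became Pgk1 -0.31, Pgd -0.73, Eno1 -0.63, Rpia -0.82, Gapdh -0.68, Ldha -0.40, Aldoa -0.72, Taldo1 -0.86, Pfkl -0.61, Tkt -0.84, Pkm -0.71, Aldoc -0.84, Slc16a3 -0.53 and Pgam1 -0.73. With library totals alone, the log2 folds in wild type became Pgk1 -0.17, Pgd -0.76, Eno1 -0.51, Rpia -0.84, Eno2 -0.77, Tpi1 -0.91, Gapdh -0.65, Ldha -0.25, Aldoa -0.68, Bnip3 -0.87, Taldo1 -0.83, Pfkl -0.34, Tkt -0.85, Pkm -0.62, Aldoc -0.81, Slc16a3 -0.059 and Pgam1 -0.66. With log2(TPM + 0.1), the log2 folds in Fes-/- became Pgk1 -0.35, Pgd -0.77, Eno1 -0.67, Rpia -0.85, Gapdh -0.72, Ldha -0.44, Aldoa -0.76, Taldo1 -0.90, Pfkl -0.65, Tkt -0.88, Pkm -0.75, Aldoc -0.87, Slc16a3 -0.56 and Pgam1 -0.77. With log2(TPM + 0.1), the log2 folds in wild type became Pgk1 -0.19, Pgd -0.79, Eno1 -0.52, Rpia -0.85, Eno2 -0.80, Tpi1 -0.93, Gapdh -0.67, Ldha -0.25, Aldoa -0.71, Bnip3 -0.90, Taldo1 -0.86, Pfkl -0.35, Tkt -0.87, Pkm -0.64, Aldoc -0.83, Slc16a3 -0.071 and Pgam1 -0.66. With log2(TPM + 1), the log2 folds in Fes-/- became Pgk1 -0.35, Pgd -0.76, Eno1 -0.67, Rpia -0.75, Gapdh -0.72, Ldha -0.44, Aldoa -0.76, Taldo1 -0.90, Pfkl -0.63, Tkt -0.87, Pkm -0.75, Aldoc -0.86, Slc16a3 -0.54 and Pgam1 -0.77. With log2(TPM + 1), the log2 folds in wild type became Pgk1 -0.19, Pgd -0.78, Eno1 -0.52, Rpia -0.75, Eno2 -0.68, Tpi1 -0.93, Gapdh -0.67, Ldha -0.25, Aldoa -0.71, Bnip3 -0.87, Taldo1 -0.86, Pfkl -0.33, Tkt -0.87, Pkm -0.64, Aldoc -0.82, Slc16a3 -0.069 and Pgam1 -0.66. The Adm difference of LPS effects was 0.053 on log2(TPM + 1). Eno2 in Fes-/- was 0.012 with DESeq2, 0.025 with RLE factors and 0.00018 with 6 libraries, and Tpi1 in wild type was -4.3e-05 with 6 libraries. With no filter, wild-type folds were -0.013 for Rpia, -0.082 for Tpi1, -0.048 for Bnip3, -0.0098 for Taldo1 and -0.021 for Tkt. Leaving out 1 library gave wild-type LPS folds of -0.10 to 0.083 for Tpi1, -0.029 to 0.28 for Eno2, -0.0056 to 0.16 for Taldo1 and -0.018 to 0.088 for Bnip3, Fes-/- LPS folds of -0.18 to 0.12 for Eno2, genotype differences of -0.12 to 0.38 for Adm under LPS and -0.028 to 0.19 for Hif1a under PBS, and differences of LPS effects of -0.21 to 0.031 for Pgk1 and -0.60 to 0.045 for Vegfa.

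Every library correlated best with the library of the other treatment with its own number, but in Fes-/- not every such correlation passed 0.1. In either genotype the numbers are a hint from the data and not the design. With the replicate block within genotype, 19 members were higher and 9 lower in each genotype after LPS. Of all genes, it called 35.4% higher and 39.7% lower in Fes-/- and 35.4% and 39.6% in wild type. The same block called 0 members for the difference of LPS effects, among 4 genes. The genotype comparisons instead took a block across Fes-/- and wild-type libraries of the same number, which came from different mice. That block called 0 members, among 12 genes under LPS and 12 under PBS. Same-numbered libraries of the genotypes had correlations of -0.151 to -0.0429 under LPS and -0.156 to 0.0161 under PBS, so it had no basis in these data. The block within genotype also called Aldoa (0.22, adjusted p = 0.019) and Pkm (0.23, adjusted p = 0.0214) in Fes-/- and Pgam1 (0.28, adjusted p = 0.0179) in wild type, and changed no other call of a member.

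With 3 libraries a group, the interval of a genotype difference reached beyond 2-fold for Egln3, Vegfa and the locus upstream of Aldoa under LPS and for Adm and Vegfa under PBS. Counts were low for Adm, Egln3 and that locus.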
